A study of Mus musculus with 16 samples.

Results

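The genes described here are 36 transcripts of the integrated stress response, namely the transcription factor ATF4, the factors and kinases around it, and the enzymes, transporters and tRNA synthetases that it is known to control. They were taken by gene symbol under a rule that names no measured value, but they were chosen with earlier results of these data known. The comparisons with all genes below are therefore not those of an independent set. All 36 were found among the 23996 genes of each deposited table. RNA-Seq was performed on mouse embryonic fibroblasts (MEFs), primary hepatocytes and embryonic stem (ES) cells with a floxed Ssu72 gene. Every group, controls included, carried the floxed alleles and an adenovirus. Ad-Luc, a virus encoding luciferase, gave the control cells, labelled WT, and Ad-Cre, a virus encoding Cre recombinase, gave the cells labelled Ssu72 KO. The labels give the strain C57BL/6, embryonic day 13.5 for the MEFs and 6 weeks for the mice that gave hepatocytes. There were 16 samples in 6 groups, 3 per group for MEFs and hepatocytes and 2 per group for ES cells.

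Cells sense amino acid shortage, unfolded protein, viral RNA or lack of heme through kinases that phosphorylate the alpha subunit of the initiation factor eIF2. General protein synthesis then falls, while the mRNA of Atf4 is translated more, so that the level of this mRNA need not follow the level of the protein. ATF4 pairs with C/EBP proteins on a composite DNA element and activates genes for amino acid synthesis and uptake, for tRNA charging, and, when stress lasts, genes linked to cell death.

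Each deposited table held 1 value per gene and group, in FPKM, which is the number of mapped fragments scaled by transcript length and library size. These values are the authors' group values. No value per sample was analysed, so the spread between samples and the depth of each sample are unknown here, and no SD, interval or test can be given. The term higher (or lower) is used below for a gene whose Ad-Cre level was above (or below) its Ad-Luc level by 1.5-fold or more, with the larger of the values reaching 1 FPKM or more. These counts are descriptions of the group values, and whether any of the differences exceeds the replicate error was not tested.

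Ssu72, the gene of a phosphatase that acts on the tail of RNA polymerase II, stood at 22.7 FPKM in Ad-Luc and 3.69 FPKM in Ad-Cre MEFs (log2 ratio -2.62). The corresponding levels were 26.0 and 5.12 FPKM in hepatocytes (-2.34) and 99.2 and 44.7 FPKM in ES cells (-1.15), so more Ssu72 transcript was left in the Ad-Cre ES cells. Each cell type carried its own markers, 4 of 4 at 1 FPKM or more, while the summed level of each of these 3 lists was at most 13.6 FPKM in the other cell types. The summed fibroblast markers were 10847 FPKM in Ad-Luc and 5744 FPKM in Ad-Cre MEFs, and the summed hepatocyte markers were 5562 and 4800 FPKM in hepatocytes. Most of the latter sum was Alb (log2 ratio -0.16), while Ttr stood at 96.9 and 32.6 FPKM (-1.57), Apoa1 at 247 and 113 FPKM (-1.13) and Tat at 11.1 and 7.82 FPKM (-0.50). The summed ES cell markers were 1791 and 1916 FPKM in ES cells. The 3 endothelial markers summed to 4.18 FPKM in Ad-Luc and 8.21 FPKM in Ad-Cre MEFs, to 11.7 and 17.2 FPKM in hepatocytes, and to 18.6 and 20.2 FPKM in ES cells. Each of the 3 had a larger value in Ad-Cre than in Ad-Luc cells in both MEFs and hepatocytes, although Pecam1 and Cdh5 stayed under 1 FPKM in MEFs. The 4 macrophage markers summed to 23.4 and 30.1 FPKM in MEFs, 11.2 and 9.14 FPKM in hepatocytes, and 28.7 and 25.5 FPKM in ES cells. Most of the last 2 pairs was Cd68, at 10.5 and 7.92 FPKM in hepatocytes and 28.7 and 25.3 FPKM in ES cells. The other macrophage markers (Ptprc, Emr1 and Csf1r) stayed under 1 FPKM in both groups of these cell types. The part of these marker differences in the results was not tested, and in bulk RNA fewer cells of a type and less RNA per cell cannot be told apart.

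The composite element that ATF4 binds with a C/EBP partner was searched on both strands as TGATGNAAN in the RefSeq promoter windows (GRCm38, the mm10 assembly) that run from 250 bases before to 50 bases after each start site. Of the 36 genes, 30 had a window, and 10 of these (33.3%) held a match, against 1215 of all 27025 genes with a window (4.50%) and 317 of the 11393 that reached 1 FPKM in some group (2.78%). Of the other genes of the pathway, in the lists described below, 8 of the 63 with a window (12.7%) held a match. The rule for the 36 genes did not name the element, but they are a list of known ATF4 targets and genes around ATF4. A larger share of matches than among all genes was therefore likely from that choice, and these shares are not an independent result. Matches in 9 of the 36 genes are shown because this is the element that ATF4 is known to bind. Each is printed 5′ to 3′ on the strand that reads as the element, with the element in capitals and 10 bases on each side.
Atf3: gcggacttggTGATGCAAGtgcgagaagg
Nupr1: aagccctgtcTGATGCAATctggcccttt
Trib3: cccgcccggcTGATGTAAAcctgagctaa
Chac1: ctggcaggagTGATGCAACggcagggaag
Asns: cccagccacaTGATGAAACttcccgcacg
Slc7a11, first match: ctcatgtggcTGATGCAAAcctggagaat
Slc7a11, other match: ggctgcatgaTGATGCAAAttctccaggt
Gars: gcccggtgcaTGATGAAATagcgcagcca
Fgf21: cctggacggaTGATGCAATgggggggtct
Vldlr: ctaggagcgcTGATGCAACtattgctgct

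The Atf3 site lies at chr1:191183426-191183454 on the plus strand, the Nupr1 site at chr7:126625563-126625591 on the plus strand, and the Trib3 site at chr2:152344029-152344057 on the plus strand. The Chac1 site lies at chr2:119351038-119351066 on the minus strand and the Asns site at chr6:7693214-7693242 on the minus strand. The Slc7a11 sites are at chr3:50443661-50443689 on the minus strand and chr3:50443643-50443671 on the plus strand, so that their printed windows overlap. The Gars site lies at chr6:55037960-55037988 on the minus strand. The Fgf21 site is at chr7:45615612-45615640 on the plus strand and the Vldlr site at chr19:27216809-27216837 on the minus strand. In the direction of the gene, the element began 23 bases upstream of the start site in Asns, 31 in Gars, 66 and 48 in Slc7a11, and 111 in both Atf3 and Nupr1. It began 140 bases upstream in Fgf21, 194 in Chac1 and 201 in Vldlr, while in Trib3 it lay 13 bases after the start site. Cth, Slc7a5, Slc7a3, Nars, Wars and Cars had no entry in the promoter table. A match of these letters is not a measured binding site.

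**Figure D1:**
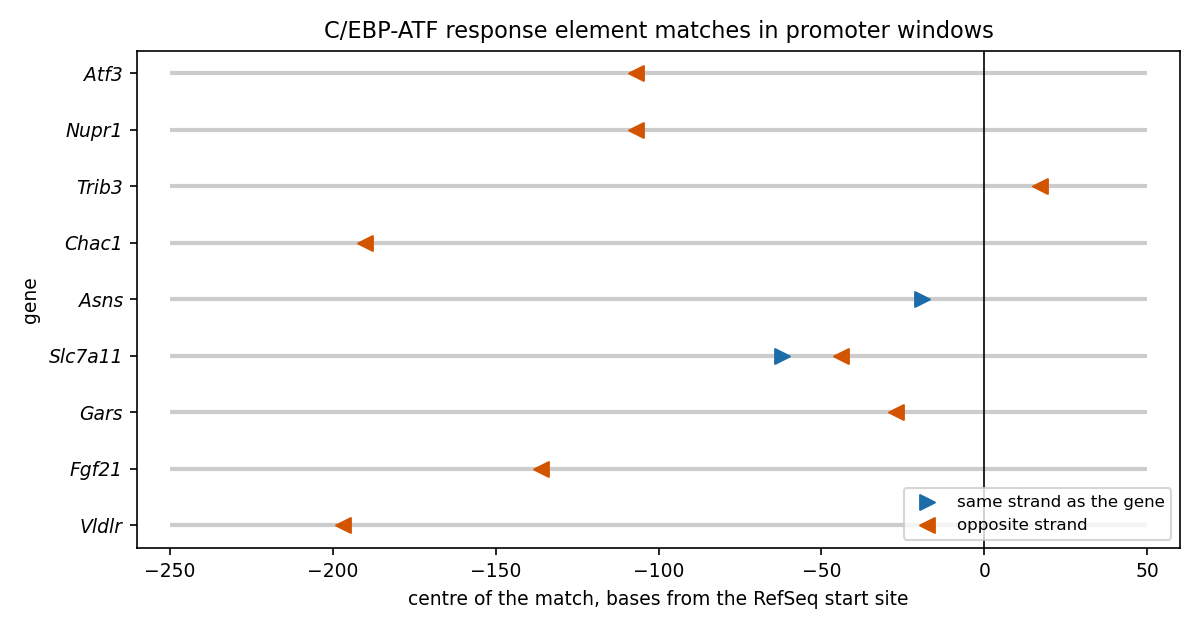
Position of each TGATGNAAN match in the promoter windows of the 9 genes whose matches are printed. The x axis is the distance of the centre of the match from the RefSeq start site in bases, each grey line is a window from 250 bases before to 50 bases after it, and arrowheads show the strand. The Trib3 match lies after the start site, and the other matches lie before it.

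The genes were first compared as a whole. In MEFs, all 36 reached 1 FPKM, and 6 were higher in Ad-Cre cells (Phgdh, Psph, Cth, Slc7a11, Slc7a3 and Wars), while among all 12431 genes at that level 8.17% were higher. Eif2ak3 was the 1 gene counted as lower, where 8.66% of all genes were. The median log2 ratio of the 36 genes was 0.32, against 0.04 for all genes, and 32 of the 36 ratios were above 1. In hepatocytes, 35 genes reached 1 FPKM, and 13 of them were higher against 6.29% of all 11950 genes. These were Atf3, Nupr1, Chac1, Asns, Phgdh, Psat1, Psph, Mthfd2, Cth, Slc7a5, Slc7a3, Slc7a1 and Cars. None was lower, against 5.75% of all genes, the median was 0.47 against 0.02, and 33 of 35 ratios were above 1.

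In ES cells, 33 genes reached 1 FPKM, and 0 were higher and 0 lower at this limit, where 2.22% and 0.715% of all 12035 genes were. Their median log2 ratio was -0.01, against 0.01 for all genes, with 14 ratios above 1 and 19 below. Of the 33, 19 differed by less than 0.1 on the log2 scale, and the log2 ratio farthest from 0 was that of Atf3, at 0.45. With the larger minimum of 5 FPKM that is used for naming other genes of the pathway, the shares of all genes that were higher and lower were 5.26% and 7.85% for MEFs, 3.58% and 4.96% for hepatocytes, and 0.804% and 0.361% for ES cells.

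The size of the ratios, and for some genes their sign, depends on the scale that is used. Cytosolic ribosomal protein genes, which make up the ribosome, had median log2 ratios of 0.26, -0.07 and 0.20 in MEFs, hepatocytes and ES cells. Set against them, the median of the 36 genes in MEFs was 0.066, with 22 above and 14 below 0, while the median of all genes was -0.22. The 10 genes whose log2 ratio in MEFs turned negative were Atf4, Atf5, Cebpg, Sesn2, Ppp1r15a, Slc7a5, Nars, Aars, Cars and Gdf15, and no sign turned in hepatocytes. On that scale 5 genes were still counted as higher in MEFs, where 4.45% of all genes were, and 14 in hepatocytes, where 7.56% were. In ES cells on that scale the median was -0.21, with 3 of 33 above 0, and that of all genes was -0.19. The MEF medians of the transcription regulators (-0.03), the mTORC1 brakes (-0.03) and the tRNA synthetases (-0.0056) were below 0 on that scale, while those of the synthesis genes (0.31), the transporters (0.06) and the pro-death targets (0.10) stayed above 0.

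**Figure D2:**
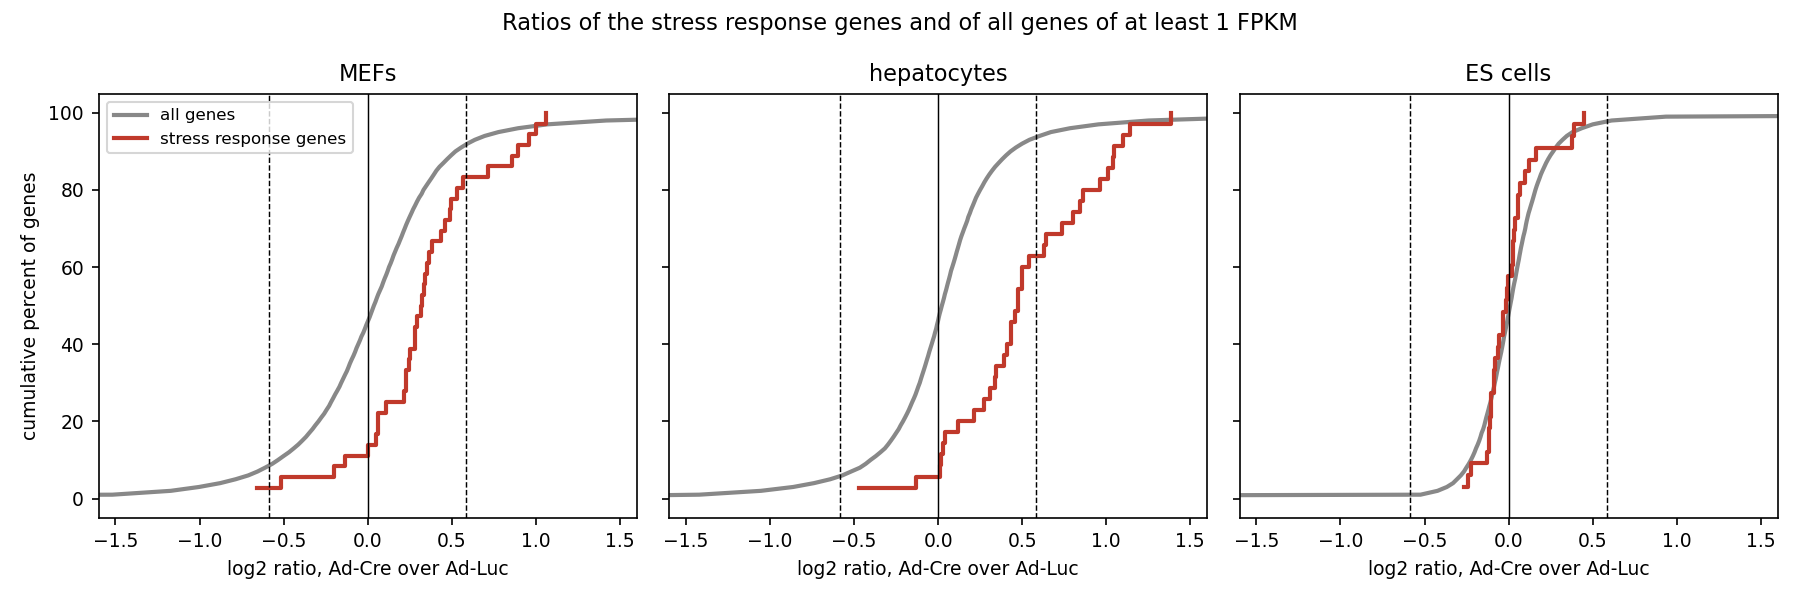
Cumulative percent of genes (y axis) by log2 ratio of Ad-Cre over Ad-Luc FPKM (x axis) for the stress response genes (red) and for all genes of at least 1 FPKM (grey), with dashed lines at 1.5-fold. The red line lies to the right of the grey line over most of its length in MEFs (medians 0.32 and 0.04) and hepatocytes (0.47 and 0.02) and close to it in ES cells (-0.01 and 0.01).

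Amino acid synthesis held the most genes counted as higher. The 7 genes for serine, one-carbon, asparagine and cysteine synthesis had 3 higher in MEFs and 6 in hepatocytes but 0 in ES cells, with median log2 ratios of 0.57, 0.84 and -0.01. All 7 ratios of the synthesis genes were above 1 in MEFs and in hepatocytes, and their log2 ratios stayed above 0 on the ribosomal protein scale. Their summed level was 552 FPKM in Ad-Luc and 898 FPKM in Ad-Cre MEFs, 191 and 328 FPKM in hepatocytes, and 603 FPKM in both groups of ES cells.

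Serine is made from a glycolytic intermediate in consecutive steps by the products of Phgdh, Psat1 and Psph. Phgdh, on chromosome 3 from 98313171 to 98339969, stood at 133 FPKM in Ad-Luc and 278 FPKM in Ad-Cre MEFs, a 2.08-fold difference (log2 ratio 1.06). The hepatocyte levels were 48.1 and 96.8 FPKM (1.01), and those in ES cells were 93.9 and 96.0 FPKM (0.03). Thus the highest MEF ratio among the 36 genes belonged to the enzyme that opens the pathway. Psph, the phosphatase of the last step, was at 31.0 and 60.4 FPKM in MEFs (0.96), 11.9 and 18.5 FPKM in hepatocytes (0.64), and 40.8 and 39.8 FPKM in ES cells (-0.03). Psat1, the aminotransferase between them, was at 102 and 148 FPKM in MEFs (0.53), below the limit, and at 34.7 and 57.8 FPKM in hepatocytes (0.74). In ES cells Psat1 was at 95.3 and 94.4 FPKM (-0.01). All 3 steps were therefore past the limit in hepatocytes, and the first and the last in MEFs.

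Shmt2 and Mthfd2 encode mitochondrial enzymes of folate metabolism, and that of Shmt2 passes a carbon unit from serine to folate. Shmt2 lay just under the limit in MEFs, at 99.7 and 148 FPKM (log2 ratio 0.57), and below it in hepatocytes, at 55.2 and 78.1 FPKM (0.50). It was at 124 and 127 FPKM in ES cells (0.04). Mthfd2 was at 63.9 and 80.8 FPKM in MEFs (0.34), 7.90 and 16.3 FPKM in hepatocytes (1.04), and 53.6 and 49.6 FPKM in ES cells (-0.11), so it passed the limit in hepatocytes alone.

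Asns, which makes asparagine from aspartate and glutamine, was at 97.5 and 134 FPKM in MEFs (log2 ratio 0.46), 21.7 and 38.9 FPKM in hepatocytes (0.84), and 146 and 142 FPKM in ES cells (-0.04). It was past the limit in hepatocytes alone and was the 1 gene of the 7 whose promoter window held the element, while Cth had no window. Cth, whose product releases cysteine from cystathionine, was at 24.5 and 49.1 FPKM in MEFs (1.00), 11.7 and 21.2 FPKM in hepatocytes (0.86), and 49.3 and 53.6 FPKM in ES cells (0.12). Phgdh, Psph and Cth were thus past the limit in both MEFs and hepatocytes, joined among the 36 genes by the transporter gene Slc7a3 alone. These 4 genes are 66.7% of the 6 higher in MEFs and 30.8% of the 13 higher in hepatocytes. The overlap among all genes was not counted, so these shares have no background beside them.

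**Figure D3:**
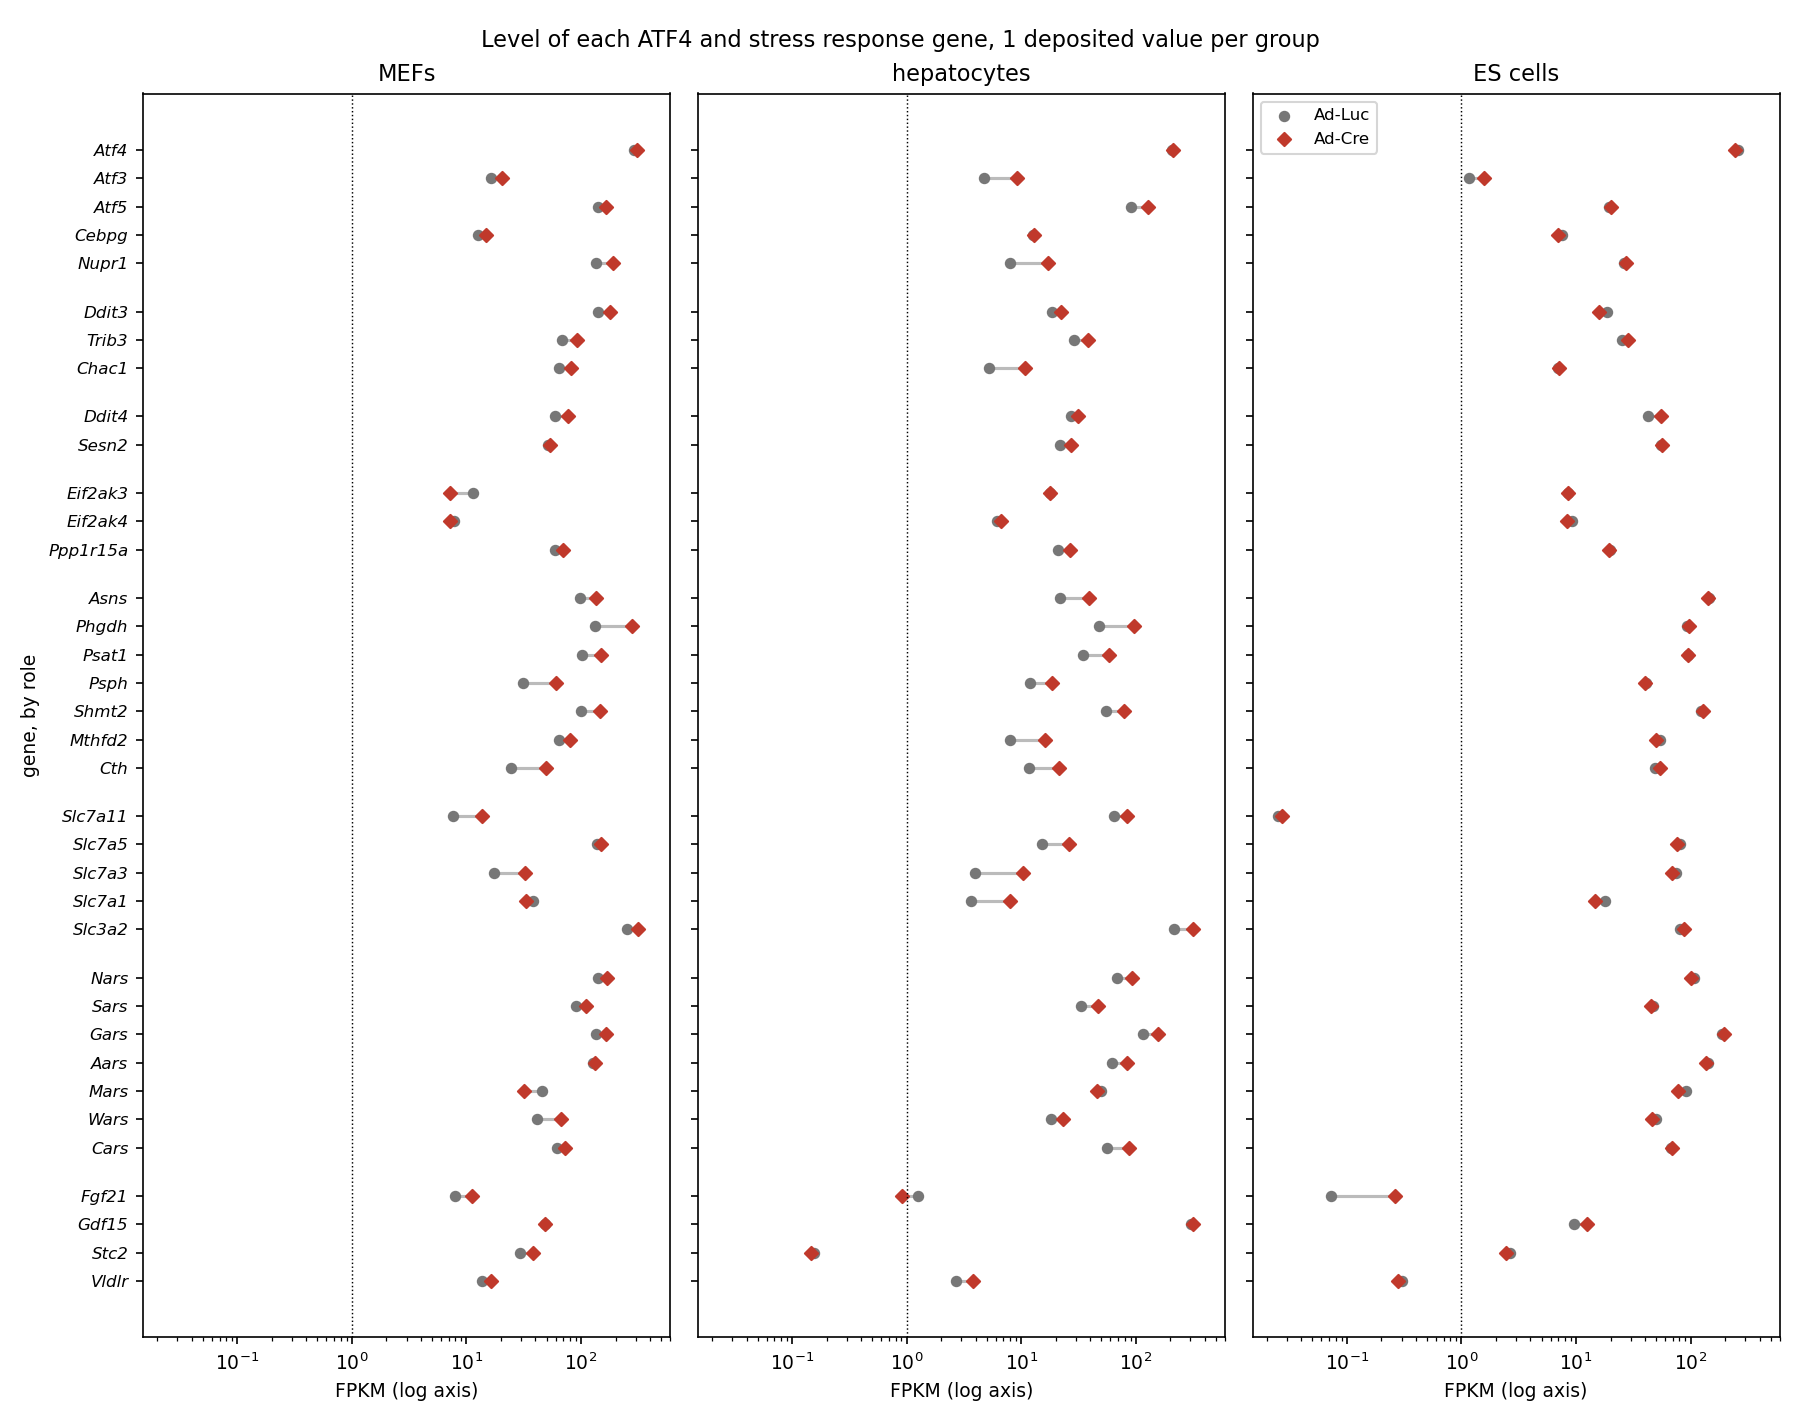
FPKM of each of the 36 genes (rows, grouped by role) in Ad-Luc (grey circles) and Ad-Cre cells (red diamonds) of the 3 cell types, on a log axis, with 1 deposited group value per point and a dotted line at 1 FPKM. Red diamonds lie to the right of the circles for 32 of 36 genes in MEFs and for 33 of the 35 genes at 1 FPKM in hepatocytes, while in ES cells most pairs overlap.

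The 5 genes of amino acid transport had 2 higher in MEFs, 3 in hepatocytes and 0 of the 4 measured at 1 FPKM in ES cells, with medians of 0.32, 0.80 and -0.10. Slc7a3, on chromosome X from 101079221 to 101085352, encodes a carrier of arginine and lysine. It was at 17.3 and 32.2 FPKM in MEFs (log2 ratio 0.90) and at 3.98 and 10.4 FPKM in hepatocytes, a 2.61-fold difference (1.38) that was the highest among the 36 genes in that cell type. In ES cells, where it was most abundant, it was at 74.0 and 68.9 FPKM (-0.10). Slc7a1, a related carrier of the same amino acids, showed opposite directions, at 38.4 and 33.3 FPKM in MEFs (-0.20) and at 3.66 and 8.06 FPKM in hepatocytes (1.14). It was at 17.7 and 14.7 FPKM in ES cells (-0.27). The log2 ratio of Slc7a1 differed by 1.34 between hepatocytes and MEFs, the widest such gap among the 35 genes measured in both.

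Slc7a11 encodes the light chain of the cystine and glutamate exchanger, Slc7a5 that of a carrier of large neutral amino acids, and Slc3a2 the heavy chain that both need. Slc7a11 was at 7.58 and 13.8 FPKM in MEFs (log2 ratio 0.86), past the limit, and at 64.3 and 84.5 FPKM in hepatocytes (0.39). In ES cells it was nearly absent, at 0.0248 and 0.0270 FPKM. Slc7a5 was at 139 and 150 FPKM in MEFs (0.11), 15.1 and 26.3 FPKM in hepatocytes (0.80), past the limit, and 81.1 and 76.2 FPKM in ES cells (-0.09). The light chains past the limit therefore differed between MEFs and hepatocytes. Slc3a2 stayed under the limit, at 251 and 313 FPKM in MEFs (0.32), 218 and 316 FPKM in hepatocytes (0.54), and 81.2 and 87.0 FPKM in ES cells (0.10).

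The 7 tRNA synthetase genes, which attach amino acids to their tRNAs, had 1 higher in MEFs and 1 in hepatocytes but 0 in ES cells, with medians of 0.25, 0.44 and -0.06. In MEFs and likewise in hepatocytes 6 of the 7 ratios were above 1, the exception being Mars, although in MEFs 3 of 7 were above 0 on the ribosomal protein scale. Wars, for tryptophan, was past the limit in MEFs, at 40.9 and 67.2 FPKM (log2 ratio 0.71), which became 0.46 on the ribosomal protein scale, and was at 18.3 and 23.1 FPKM in hepatocytes (0.34). Cars, for cysteine, was just past the limit in hepatocytes, at 55.9 and 86.6 FPKM (0.63), and was at 61.4 and 72.8 FPKM in MEFs (0.25). The ES cell log2 ratios were -0.13 for Wars and 0.02 for Cars.

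The asparagine, serine, glycine and alanine enzymes stayed under the limit in all 3 cell types. Nars was at 141 and 168 FPKM in MEFs (log2 ratio 0.25) and 68.8 and 93.0 FPKM in hepatocytes (0.43). Sars was at 90.8 and 110.3 FPKM in MEFs (0.28) and 33.6 and 46.6 FPKM in hepatocytes (0.47). In hepatocytes the log2 ratios of these 4 genes lay between 0.43 and 0.47. Gars was at 136 and 167 FPKM in MEFs (0.29) and 114 and 157 FPKM in hepatocytes (0.46). Aars was at 128 and 133 FPKM in MEFs (0.05) and 62.2 and 84.1 FPKM in hepatocytes (0.44). In ES cells Nars, Sars, Gars and Aars had log2 ratios between -0.08 and 0.05.

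Mars, the methionine enzyme, was at 45.8 and 32.1 FPKM in MEFs (log2 ratio -0.51), 49.7 and 45.4 FPKM in hepatocytes (-0.13), and 91.4 and 77.3 FPKM in ES cells (-0.24). It was thus the lowest of the 7 synthetases in each cell type, and on the ribosomal protein scale it passed the limit downward in MEFs (-0.77). Mars lies tail to tail with Ddit3 on chromosome 10, on the opposite strand. The 2 genes share 68 exonic bases in GENCODE and a deposited locus from 127290793 to 127311786, so reads from their shared end can be told apart only by strand. Without these genes no count of higher or lower genes changed in any cell type.

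**Figure D4:**
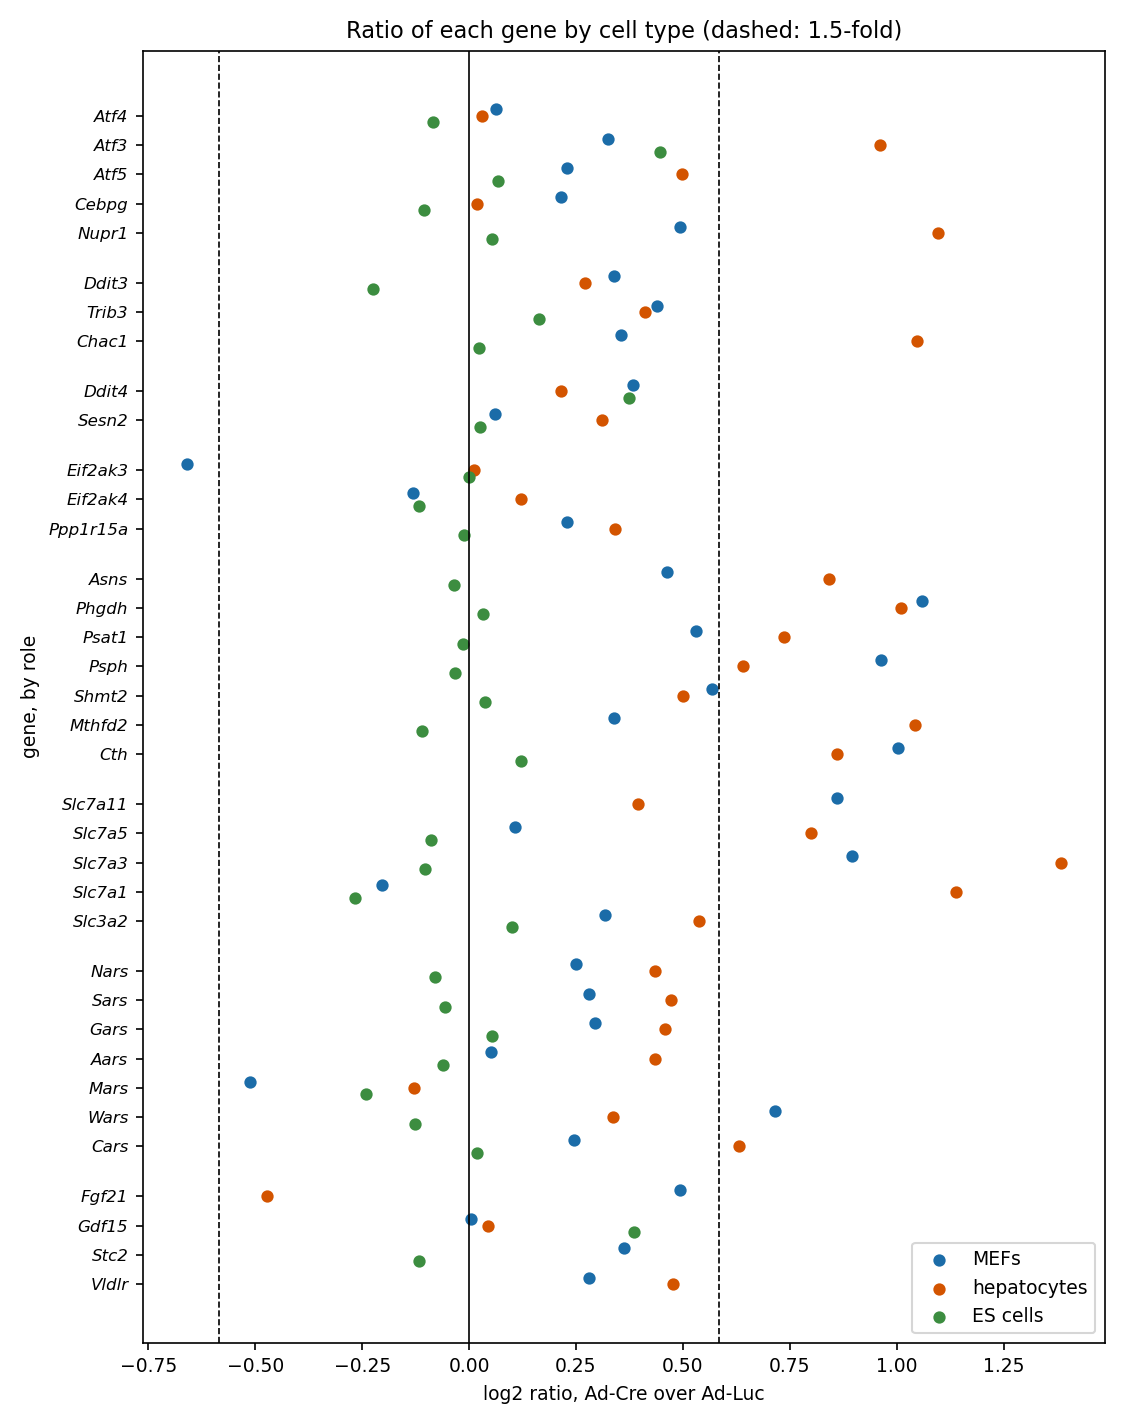
Log2 ratio of Ad-Cre over Ad-Luc FPKM (x axis) of each gene (rows, grouped by role) in MEFs (blue), hepatocytes (orange) and ES cells (green), for genes whose larger value reached 1 FPKM, with dashed lines at 1.5-fold. No green point passes a dashed line, 6 blue points and 13 orange points pass the right line, and Eif2ak3 in MEFs (-0.66) passes the left line.

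The pro-death targets had a lower median ratio than the synthesis genes in MEFs and hepatocytes. None of the 3 was past the limit in MEFs, 1 was in hepatocytes and 0 in ES cells, with medians of 0.36, 0.41 and 0.02. Ddit3, which encodes the factor CHOP, was at 141 and 179 FPKM in MEFs (log2 ratio 0.34), 18.6 and 22.5 FPKM in hepatocytes (0.27), and 18.5 and 15.8 FPKM in ES cells (-0.22). Trib3, a pseudokinase induced by ATF4 and CHOP, was at 68.5 and 92.8 FPKM in MEFs (0.44), 29.0 and 38.6 FPKM in hepatocytes (0.41), and 25.3 and 28.3 FPKM in ES cells (0.16). Chac1, which degrades glutathione and lies on chromosome 2 from 119351242 to 119354327, was at 64.2 and 82.2 FPKM in MEFs (0.36). Its hepatocyte levels were 5.19 and 10.7 FPKM, a 2.07-fold difference (1.05), and its ES cell levels 6.92 and 7.03 FPKM (0.02). The hepatocyte count thus rests on Chac1, while the log2 ratios of Ddit3 and of Trib3 differed by less than 0.1 between MEFs and hepatocytes.

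The 5 transcription regulators had 0 higher in MEFs and ES cells and 2 in hepatocytes, with median log2 ratios of 0.23 (MEFs), 0.50 (hepatocytes) and 0.05 (ES cells). Atf4 itself, on chromosome 15 from 80255184 to 80257545, was at 293 and 306 FPKM in MEFs (log2 ratio 0.06), 205 and 210 FPKM in hepatocytes (0.03), and 261 and 246 FPKM in ES cells (-0.08). Its mRNA was therefore within 0.1 on the log2 scale between the groups of every cell type. Cebpg, a dimer partner of ATF4, was at 12.7 and 14.8 FPKM in MEFs (0.21), 12.7 and 12.8 FPKM in hepatocytes (0.02), and 7.53 and 7.00 FPKM in ES cells (-0.11).

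Atf3, a stress-induced factor of the same family, was at 16.5 and 20.6 FPKM in MEFs (log2 ratio 0.32), 4.72 and 9.19 FPKM in hepatocytes (0.96), and 1.16 and 1.58 FPKM in ES cells (0.45). Nupr1, a small stress-induced chromatin protein, was at 135 and 191 FPKM in MEFs (0.49), 7.99 and 17.1 FPKM in hepatocytes (1.10), and 26.5 and 27.5 FPKM in ES cells (0.05). Both were past the limit in hepatocytes alone, and both had lower Ad-Luc levels there than in MEFs. Atf5, another relative of ATF4, was at 141 and 165 FPKM in MEFs (0.23), 91.3 and 129 FPKM in hepatocytes (0.50), and 19.4 and 20.4 FPKM in ES cells (0.07).

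Of the genes that act on eIF2 itself, Eif2ak3 encodes the endoplasmic reticulum kinase PERK, Eif2ak4 the amino acid sensor GCN2, and Ppp1r15a the stress-induced subunit GADD34 of the phosphatase that reverses them. Eif2ak3 was the 1 gene of the 36 counted as lower in any cell type, at 11.4 and 7.18 FPKM in MEFs (log2 ratio -0.66), and was at 17.8 and 17.9 FPKM in hepatocytes (0.01). In ES cells it was at 8.56 and 8.55 FPKM. Eif2ak4 was at 7.85 and 7.16 FPKM in MEFs (-0.13), 6.09 and 6.62 FPKM in hepatocytes (0.12), and 9.14 and 8.42 FPKM in ES cells (-0.12). Ppp1r15a was at 59.8 and 70.1 FPKM in MEFs (0.23), 21.0 and 26.6 FPKM in hepatocytes (0.34), and 19.7 and 19.6 FPKM in ES cells (-0.01).

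Ddit4 and Sesn2, whose products restrain the growth kinase complex mTORC1, were past the limit in no cell type. Ddit4 was at 59.5 and 77.6 FPKM in MEFs (log2 ratio 0.38), 27.0 and 31.3 FPKM in hepatocytes (0.21), and 42.4 and 55.0 FPKM in ES cells (0.38). Sesn2 was at 51.6 and 53.8 FPKM in MEFs (0.06), 22.0 and 27.3 FPKM in hepatocytes (0.31), and 55.4 and 56.4 FPKM in ES cells (0.02).

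The secreted factors and the lipoprotein receptor gene Vldlr were also past the limit in no cell type. Gdf15, a hormone that lowers appetite, was at 48.5 and 48.7 FPKM in MEFs (log2 ratio 0.00), 305 and 315 FPKM in hepatocytes (0.04), and 9.54 and 12.5 FPKM in ES cells (0.39). Fgf21, a hormone of the fasted liver, was at 7.97 and 11.2 FPKM in MEFs (0.49) and 1.27 and 0.912 FPKM in hepatocytes (-0.47), and at 0.0730 and 0.261 FPKM in ES cells. It was the gene with the lowest ratio of the group in hepatocytes. Stc2, a secreted glycoprotein, was at 29.6 and 38.1 FPKM in MEFs (0.36), 0.155 and 0.147 FPKM in hepatocytes, and 2.66 and 2.45 FPKM in ES cells (-0.12). Vldlr was at 13.6 and 16.5 FPKM in MEFs (0.28), 2.71 and 3.77 FPKM in hepatocytes (0.48), and 0.302 and 0.278 FPKM in ES cells.

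The ratios in MEFs and hepatocytes were then set side by side. Of the 35 genes at 1 FPKM in both, 30 had ratios above 1 in both, and the log2 ratio was larger in hepatocytes for 23 and in MEFs for 12. Past the limit upward were 4 genes in both cell types, 9 in hepatocytes alone and 2 (Slc7a11 and Wars) in MEFs alone, so that 15 of the 36 genes were higher in at least 1 cell type and 20 passed the limit in none. The difference between the cell types was not tested, and the overlap among all genes was not counted. The MEF median log2 ratio was 0.40 for the 10 genes with a promoter match and 0.25 for the 20 with a window but no match. The hepatocyte medians were 0.47 and 0.34, and the ES cell medians 0.05 and -0.02. Of the MEF genes, 1 of 10 with a match and 2 of 20 without were higher. The hepatocyte counts at 1 FPKM were 4 of 10 and 5 of 19. The ranges overlapped, from 0.05 to 0.86 and -0.66 to 1.06 for MEFs, and -0.47 to 1.10 and -0.13 to 1.14 for hepatocytes. Whether genes with and without a match differ was not tested. Phgdh and Psph, without a match in their windows, were among the genes past the limit in both MEFs and hepatocytes. Only the letters TGATGNAAN from 250 bases before to 50 bases after a start site were searched. A gene without a match may therefore hold the element elsewhere or in another form.

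**Figure D5:**
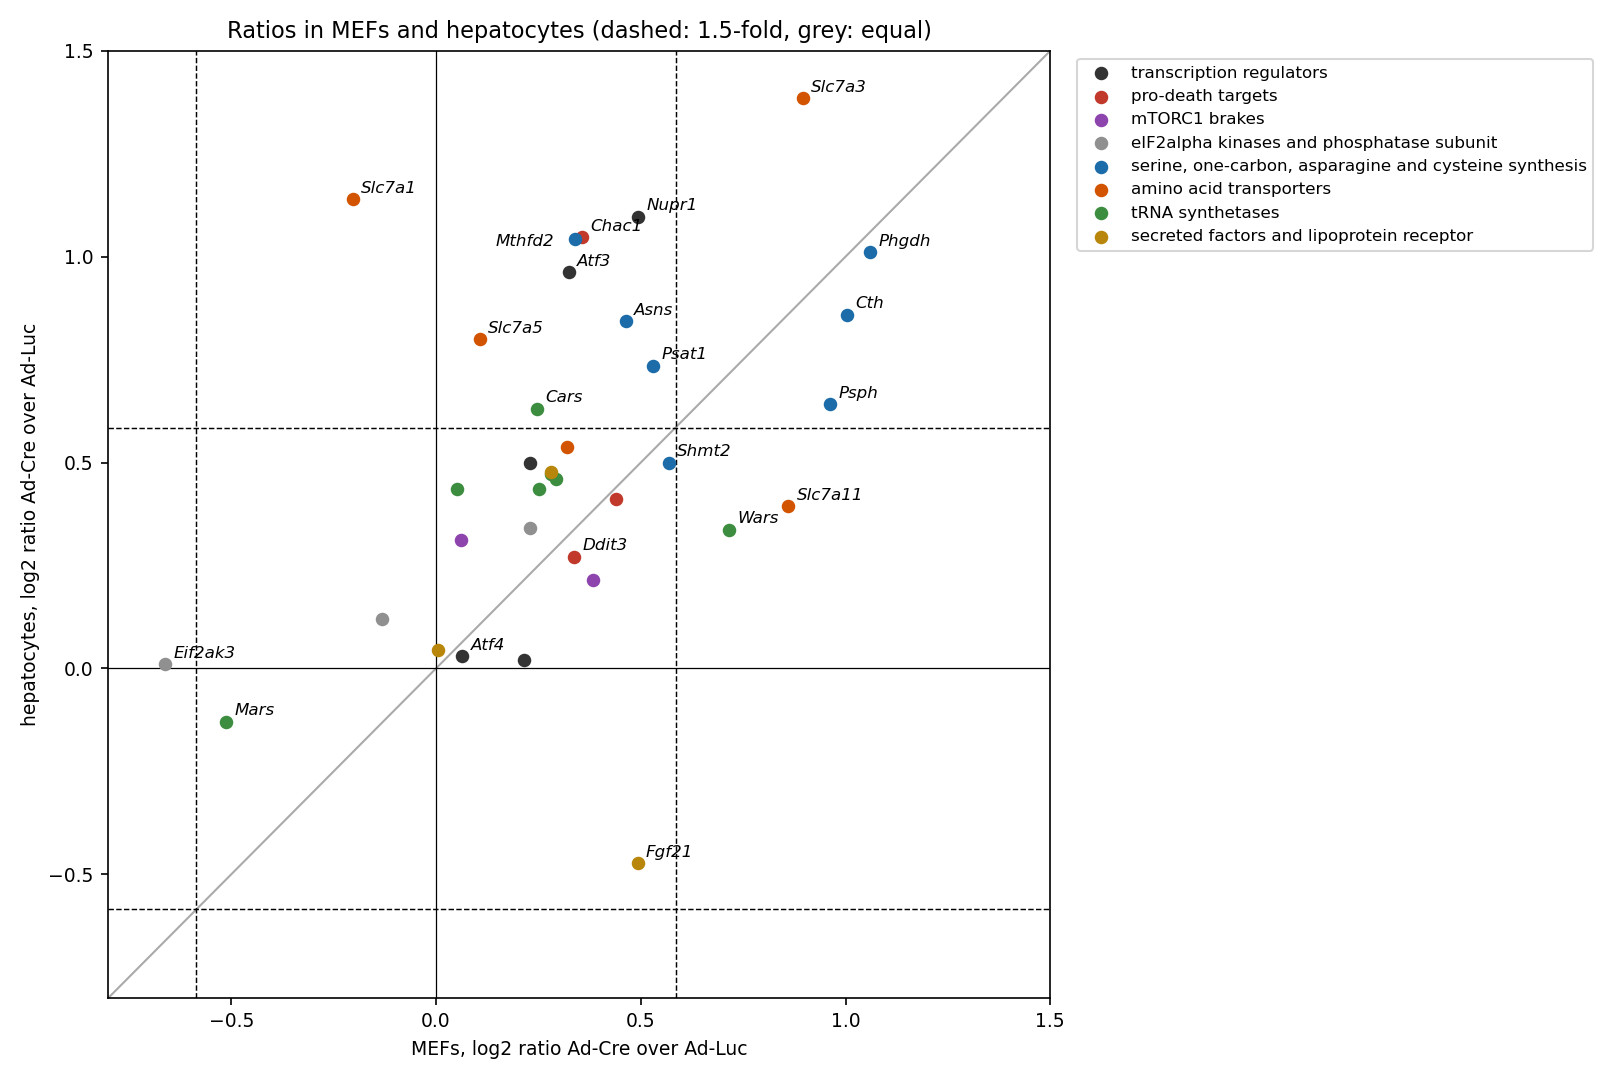
Log2 ratio of Ad-Cre over Ad-Luc FPKM in MEFs (x axis) and hepatocytes (y axis) for the 35 genes of at least 1 FPKM in both, coloured by role, with dashed lines at 1.5-fold and a grey line where both are equal. Phgdh, Psph, Cth and Slc7a3 lie past both limits, 23 genes lie above the grey line, and Slc7a1 (-0.20 in MEFs, 1.14 in hepatocytes) lies farthest from it.

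The control cells differed in how much of these transcripts they held before any deletion. The 3 tables were normalized separately, so these levels are only set side by side, per transcript length. The median Ad-Luc level was 60.6 FPKM in MEFs, 21.3 FPKM in hepatocytes and 44.7 FPKM in ES cells. Among Ad-Luc cells, 21 genes were highest in MEFs, 12 in ES cells, and 3 in hepatocytes, namely Gdf15, Slc7a11 and Eif2ak3. On the TPM scale these counts were 24, 8 and 4, with Cebpg joining the hepatocyte genes. Atf4 had the highest level of the 36 genes in MEFs and in ES cells, and Gdf15 had it in hepatocytes. The synthesis genes summed to 603 FPKM in Ad-Luc ES cells, 552 FPKM in Ad-Luc MEFs and 191 FPKM in Ad-Luc hepatocytes, but on the TPM scale, where each group sums to the same total, the order of the first pair turned, with 913 TPM in ES cells, 994 TPM in MEFs and 353 TPM in hepatocytes.

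Other genes of the same pathways, none of them among the 36, were followed in lists. Among all genes at 1 FPKM, 8.17% were higher and 8.66% lower in MEFs. The corresponding shares in hepatocytes were 6.29% and 5.75%. Single genes in lists this short were not tested against these shares. Of 13 other cytosolic tRNA synthetases, 1 was higher in MEFs and 0 in hepatocytes and ES cells, with medians of 0.38, 0.25 and 0.08. The MEF gene was Rars, the arginine enzyme, at 109 and 209 FPKM (log2 ratio 0.94). Of 17 mitochondrial synthetases, Yars2 was higher in MEFs, at 16.7 and 27.1 FPKM (0.70), and Lars2 lower, at 365 and 159 FPKM (-1.20), and 0 passed the limit elsewhere. Of 13 genes of eIF2, its exchange factor eIF2B and their regulators, Eif2b3, an eIF2B subunit, was higher in MEFs, at 12.9 and 22.5 FPKM (0.80).

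Of the 12 other enzymes of one-carbon and amino acid metabolism, 1 was higher in MEFs and 1 in hepatocytes. Shmt1, the cytosolic counterpart of Shmt2, was at 3.76 and 6.27 FPKM in MEFs (log2 ratio 0.74), and Mthfd1l, a mitochondrial folate enzyme, was at 11.0 and 17.4 FPKM in hepatocytes (0.66). Of the 9 other transporters, 1 was higher in MEFs and 2 in hepatocytes. Slc1a5, a glutamine carrier, was higher in both, at 53.2 and 87.0 FPKM in MEFs (0.71) and 10.6 and 17.4 FPKM in hepatocytes (0.71). Of the 9 partners and relatives of ATF4, 1 was higher and 1 lower in MEFs, both under 5 FPKM.

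Among relatives of single genes of the group, Sesn3, related to Sesn2, was lower in MEFs, at 6.99 and 3.73 FPKM (log2 ratio -0.91). Chac2, related to Chac1, was lower in hepatocytes, at 5.67 and 3.60 FPKM (-0.65), opposite in direction to Chac1. No gene of these 7 lists passed the limit in ES cells, where 2.22% of all genes were higher and 0.715% lower.

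Finally, the positions of the 36 genes were examined, since reads of a neighbour can be added to a gene that they overlap. In GENCODE, 6 genes share exonic bases with another coding gene. There Aars shares 1326 bases with Exosc6 on the same strand, which strand cannot separate. In the deposited values, however, no other gene had the locus of Aars. The other 5 (Atf5, Ddit3, Ppp1r15a, Shmt2 and Mars) overlap a gene on the opposite strand in GENCODE. A deposited locus was shared with another gene by 5 of the 36 genes, namely Atf5, Ddit3, Shmt2, Mars and Cars. That of Atf5 was shared with Il4i1, Tbc1d17, Nup62 and Nup62-il4i1. Within 10 kb upstream of 4 genes ended a same-strand gene that reached 5 FPKM in some group, with Mief1 1813 bases before Atf4. That group could be of any cell type, so a neighbour need not be expressed in hepatocytes. Of these 4, Psat1 and Cars were past the limit in hepatocytes, and Atf4 and Ddit3 in no cell type. Whether reads of these neighbours entered the values was not tested.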

How the data were processed

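RNA-Seq of 16 samples was available as 1 table per cell type. The FPKM values analysed here were made by the authors and deposited as 1 value per gene and group. Cuffdiff 2.2.0, TopHat2 2.0.13, CASAVA, DESeq, edgeR and the mm10 build stand in the submitters' processing notes, and depth per sample is unknown. The header of the ES table names the Ad-Luc libraries with the letters FS, and that column was taken as the ES control. Columns of the authors' own comparisons (log2 fold changes, folds, test statistics, p-values and q-values) were not used, nor were 9 tables of selected genes. Ratios carry no pseudocount. All 36 genes are named, with Ssu72, and of the other pathway genes those past 1.5-fold with at least 5 FPKM in the higher group, at most 3 a list; some items are not reported here. The genes and lists were chosen with earlier results of these data known. Neighbours were measured between GENCODE M21 gene models, in place of the deposited loci first planned. Those of at least 5 FPKM in some group of any cell type were counted. Promoter windows came from RefSeq (GRCm38). Alternatives were another fold limit, minimum level, pseudocount and 3 scalings. Code for the calls was tested on simulated data and run with Python 3.11.15 and pandas 2.3.3.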

Additional observations from a re-analysis of the deposited data

How the results depend on the processing

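With 1 group value per gene, nothing here has a replicate check: leaving out each replicate was not run, and no error can be set beside a ratio. No paired analysis was possible because the tables hold no values per sample. At a 2-fold limit, MEFs had 2 of the 36 genes higher and 0 lower and hepatocytes had 6 higher, where 3.31%, 3.02% and 2.78% of all genes were, and 7 hepatocyte and 5 MEF genes no longer passed. Relative to the ribosomal protein genes, 2 genes were lower in MEFs (Mars joining Eif2ak3) with a median log2 ratio of 0.066, and the ES cell median was -0.21. That scale changed the MEF counts of all genes from 1015 higher and 1077 lower to 553 and 2232, the hepatocyte counts from 752 and 687 to 904 and 581, and the ES cell counts from 267 and 86 to 155 and 326. It shifted every log2 ratio by -0.26 for MEFs, 0.07 for hepatocytes and -0.20 for ES cells. Scaled to TPM, the ES cell median was -0.13, with every ratio shifted by -0.11, and the counts of all genes were 199 higher and 164 lower. With no minimum level 1 gene, Fgf21, was higher in ES cells, from levels under 1 FPKM. A minimum of 5 FPKM, a pseudocount of 1 FPKM, centring on the median gene and, added after seeing the data, leaving out Ddit3 and Mars changed no count of higher or lower genes among the 36. The first 3 of these settings did change the counts of all genes. No ratio past the 1.5-fold limit changed sign under the alternatives run, but 10 ratios within it did in MEFs and 11 in ES cells on the ribosomal protein scale, and 9 in ES cells scaled to TPM.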
